A study of Mus musculus with 16 samples.

Results

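Mast cells are resident immune cells of connective tissue, fat included, and they are recognised by the enzymes stored in their granules. In the mouse, connective tissue mast cells carry chymases such as Mcpt4 and Cma1, the carboxypeptidase Cpa3 and tryptases, whereas Mcpt1 and Mcpt2 are the chymases of mucosal mast cells. Their high affinity IgE receptor holds the chains encoded by Fcer1a and Ms4a2, and Hdc makes histamine. The genes described here are 10 mast cell protease and receptor genes: Cma1, Mcpt4, Cpa3, Tpsb2, Tpsab1, Hdc, Fcer1a, Ms4a2, Mcpt1 and Mcpt2. They were found through the accession that the array files give for each probe, and 9 of the 10 had a named probe among 19096 named genes in all. Tpsab1, which the RefSeq table lists as a transcribed pseudogene, was left without a named probe and so without a value. 10 probes covered the 9 genes, of which Cma1 had 2. 7 genes passed the filter on dim probes, and Ms4a2 and Mcpt2 did not.

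The study compared mice lacking the glucocorticoid receptor in adipose tissue with wild-type mice in brown and white adipose tissue. The labels give no promoter or Cre line for the deletion, no strain, no age and no depot within white fat, and they describe all animals as female. The groups are AdipoKO_BAT (brown fat, knockout), CTL_BAT (brown fat, wild type), AdipoKO_WAT (white fat, knockout) and CTL_WAT (white fat, wild type), with 4 one-colour arrays each. The spread between AdipoKO_WAT arrays 1 and 2 was 0.961 times the spread between repeat spots on an array, whereas it was at least 2.32 times in each of the other 119 pairs of arrays. Those 2 arrays agree within sampling noise and were counted as 1 sample (1-2), so AdipoKO_WAT has n = 3. A level below is the log2 processed signal minus the log2 75th percentile of its array, so that 0 is the 75th percentile and a difference of 1 is a 2-fold difference in signal.

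Some white fat samples stood apart in values other than those of the mast cell genes. The array 75th percentile lay between 298 and 1035 signal units, and 66.7% to 83.6% of probes were well above background. Nr3c1, which encodes the deleted receptor, averaged 1.45 ± 0.21 in AdipoKO_BAT and 2.49 ± 0.16 in CTL_BAT (SD, n = 4 each), and 1.53 ± 0.15 in AdipoKO_WAT (SD, n = 3) and 2.19 ± 0.28 in CTL_WAT (SD, n = 4), with no overlap in either depot. Marker lists of B cells and of T and NK cells were high in AdipoKO_WAT 1-2 and 3 and in CTL_WAT 3 and 4, and intestinal transcripts were high in CTL_WAT 1 and 4. Adipocyte markers were lowest in AdipoKO_WAT 1-2 and 3. Ucp1, which defines brown adipocytes, had levels of 8.21 to 8.99 in brown fat and of -5.23 to -1.10 in white fat. These values are set beside the mast cell results they touch, and in whole tissue RNA fewer mast cells and less RNA per mast cell cannot be told apart. Each slide carried 1 array of each group at a fixed position, so position and group cannot be told apart.

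The sequences upstream of the 3 proteases with the largest differences among the members in white fat are shown because their levels varied together, and that of Mcpt1 is shown because it is a close relative of Mcpt4 with a different pattern. All come from RefSeq (GRCm38.p6), which gave a window for 7 of the 10 genes, and each run ends at the base before the annotated gene. Capitals mark a GATA motif, searched as AGATAA or TGATAA on both strands. Mast cell genes are known targets of the GATA factors. The motif was in 16.6% of 32851 windows of 250 bases upstream of a listed promoter start, which for some genes lies inside the annotated gene.
Cma1 (chr14:55944676-55944925, minus strand, no match): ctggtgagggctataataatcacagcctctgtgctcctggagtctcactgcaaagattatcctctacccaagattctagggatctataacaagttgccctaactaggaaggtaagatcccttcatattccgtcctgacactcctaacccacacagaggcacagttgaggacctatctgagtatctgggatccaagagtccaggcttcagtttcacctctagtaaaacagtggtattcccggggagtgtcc
Mcpt4 (chr14:56062311-56062560, minus strand, match 103 bases before the gene): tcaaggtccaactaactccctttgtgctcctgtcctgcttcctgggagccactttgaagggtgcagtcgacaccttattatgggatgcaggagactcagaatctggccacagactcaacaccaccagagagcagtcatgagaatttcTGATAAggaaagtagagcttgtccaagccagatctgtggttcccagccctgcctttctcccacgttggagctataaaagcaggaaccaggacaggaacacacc
Mcpt1 (chr14:56017714-56017963, plus strand, match 99 bases before the gene): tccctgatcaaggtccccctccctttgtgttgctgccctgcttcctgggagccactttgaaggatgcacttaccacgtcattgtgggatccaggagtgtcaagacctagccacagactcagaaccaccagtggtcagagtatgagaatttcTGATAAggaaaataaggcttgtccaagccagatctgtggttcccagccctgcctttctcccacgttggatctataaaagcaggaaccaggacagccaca
Cpa3 (chr3:20242210-20242431, minus strand, match 18 bases before the gene): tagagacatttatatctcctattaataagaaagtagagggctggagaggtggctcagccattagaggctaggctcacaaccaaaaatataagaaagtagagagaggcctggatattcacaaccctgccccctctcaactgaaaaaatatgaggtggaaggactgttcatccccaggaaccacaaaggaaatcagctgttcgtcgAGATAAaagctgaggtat

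Cma1, Mcpt1, Mcpt2 and Mcpt4 lie within one cluster on chromosome 14 between positions 55941451 and 56062310. The 250 bases before Mcpt1 and Mcpt4 were identical at 213 of 260 aligned positions (81.9%), whereas those of Cma1 and Mcpt4 were identical at 54.1%. The latter is near the identity of the Cma1 window with windows of members on other chromosomes, 47.5% (Hdc) to 52.4% (Cpa3). Tpsb2 and Tpsab1 are neighbours on chromosome 17. Fcer1a had 1 GATA match in its window, Ms4a2 had 3 and Hdc had none, and 0.371% of all windows held 3 or more. The Ms4a2 window (11623720 to 11623969) reaches into the annotated gene (11615517 to 11623790). Its matches 37 and 11 bases before the window end lie inside that gene. The whole Hdc window (126618679 to 126618928) lies inside the annotated gene (126593659 to 126624025). A match is a run of letters only, and no match says only that these letters are absent from this window.

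In white fat Cma1, Mcpt4 and Cpa3 were far lower in AdipoKO_WAT. The 10 genes were chosen by their measured white fat levels in AdipoKO_WAT and CTL_WAT, so this difference is given as a description without a test. Cma1, an alpha-chymase stored with Cpa3 in the granule, had levels of -3.44, -2.75 and -1.29 in AdipoKO_WAT samples 1-2, 3 and 4, against 1.10, 1.46, 0.22 and 0.42 in CTL_WAT samples 1 to 4. Every AdipoKO_WAT sample lay below every CTL_WAT sample. The fitted difference in level was -3.30 ± 0.49 (SE), a 9.82-fold lower signal. The other Cma1 probe was dimmer and gave a difference of -2.03, a 4.07-fold lower signal, with levels of -4.51, -2.76 and -3.14 in AdipoKO_WAT and -1.12, -0.89, -1.97 and -1.78 in CTL_WAT.

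Mcpt4, the mouse chymase closest in function to the human enzyme, had levels of -4.92, -3.47 and -2.21 in AdipoKO_WAT, against -0.10, -0.07, -1.21 and -0.78 in CTL_WAT. The groups were again apart, and the difference in level was -2.99 ± 0.51 (SE), or 7.96-fold. Cpa3, which removes C-terminal residues from peptides and is stored with the chymases, had levels of -4.82, -4.04 and -2.92 in AdipoKO_WAT, against -1.11, -0.18, -1.30 and -1.03 in CTL_WAT. Its groups did not overlap either, and the difference in level was -3.02 ± 0.52 (SE), or 8.14-fold. On AdipoKO_WAT array 1 the probes of Mcpt4 and Cpa3 were not well above background, and on array 2, counted with it as 1 sample, they were. In all 3 genes AdipoKO_WAT 4 was the highest knockout sample, but on the dimmer Cma1 probe AdipoKO_WAT 3 was (-2.76, against -3.14 in AdipoKO_WAT 4). With normexp background correction, which adds an offset of 50 to the signal, the differences were smaller, at -2.05 for Cma1, -1.48 for Mcpt4 and -1.34 for Cpa3.

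Hdc, the enzyme that makes histamine, had levels of -2.29, -1.90 and -0.37 in AdipoKO_WAT, against -0.40, 0.27, -0.84 and -0.74 in CTL_WAT. AdipoKO_WAT 4 lay inside the control range and the other knockout samples below it, and the difference in level was -1.09 ± 0.37 (SE). Hdc is also made by other leukocytes. Tpsb2, a tryptase, had levels of -4.70, -3.27 and -3.28 in AdipoKO_WAT and between -3.49 and -2.37 in CTL_WAT. Its groups overlapped, with a difference in level of -0.67 ± 0.36 (SE). Fcer1a, the IgE-binding chain of the receptor, had levels of -4.94, -3.91 and -3.22 in AdipoKO_WAT and of -3.68, -3.49, -3.80 and -3.94 in CTL_WAT, which overlapped. The probes of Tpsb2 and Fcer1a were also not well above background on AdipoKO_WAT array 1, and on array 2 they were.

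Mcpt1, a mucosal chymase, overlapped between the white fat groups. It had levels of -4.90, -3.23 and -4.05 in AdipoKO_WAT and of -3.35, -5.23, -4.51 and -4.53 in CTL_WAT, with a difference in level of 0.35 ± 0.66 (SE), and it was well above background on every white fat array. Mcpt2 was well above background on 1 of 16 arrays and Ms4a2, the beta chain of the receptor, on 1 of 16, both in AdipoKO_WAT, so neither gives a difference. Of the 7 tested genes, 6 had a negative difference in white fat and 1 a positive one, with a median of -1.09, whereas the median of all 25107 genes and unnamed probes was 0.24. The limma fit over all of them, with Benjamini-Hochberg adjustment and a threshold of 0.05, put 1 of the 7, Cma1, among the 0.0597% of features called, and nothing is read from that count, since the genes were chosen on these arrays. It was 0 without AdipoKO_WAT 1-2, AdipoKO_WAT 3, CTL_WAT 1 or CTL_WAT 4, and 4 without AdipoKO_WAT 4. That last fit called 9236 of the 25107 features in white fat. Cma1, Mcpt4 and Cpa3 had groups that did not overlap, on the lower side, where 1.23% of all features did.

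**Figure D1:**
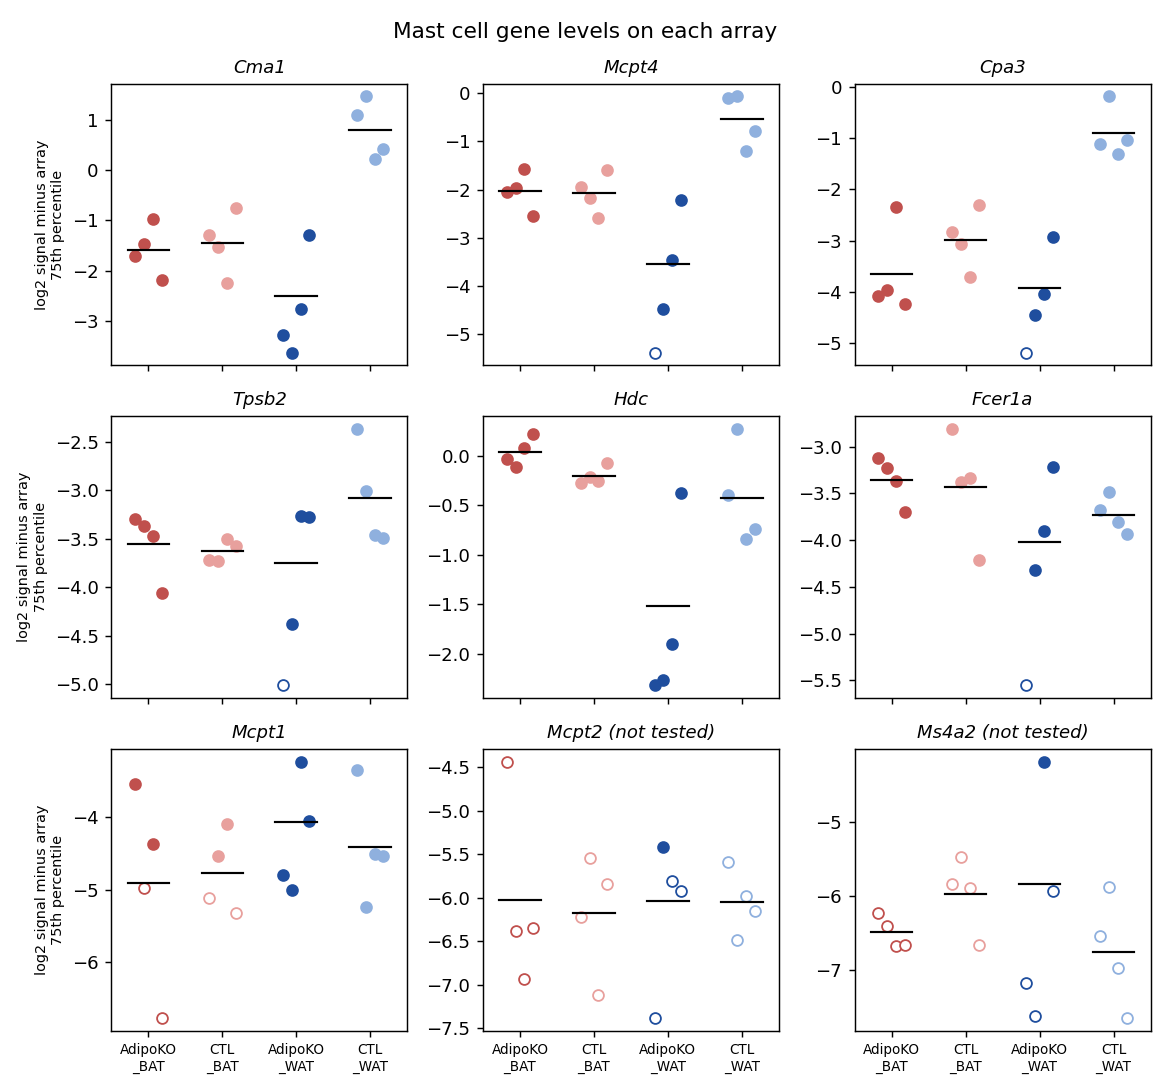
Level of 9 mast cell genes on each of the 16 arrays (vertical axis, log2 signal minus the log2 75th percentile of the array; vertical ranges differ between panels) in AdipoKO_BAT, CTL_BAT, AdipoKO_WAT and CTL_WAT; filled points were well above background, open points were not, and black lines are group means over samples. For Cma1, Mcpt4 and Cpa3 every AdipoKO_WAT point lies below every CTL_WAT point, while the brown fat groups overlap in every panel of a tested gene.

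Cma1, Mcpt4 and Cpa3 were lower in AdipoKO_WAT on every slide. Within slides 1 to 4, which each held 1 array of each white fat group, AdipoKO_WAT minus CTL_WAT was -3.85, -5.08, -1.51 and -3.69 for Cma1, where slides 2 and 4 hold the knockout arrays counted as 1 sample. For Mcpt4 it was below 0 on 4 of 4 slides, down to -4.60, and for Cpa3 it lay between -4.28 and -1.63. Hdc was lower on 3 of 4 slides, with a range of -2.54 to 0.47. With slide as a block the count called in white fat was 3, namely Cma1, Cpa3 and Mcpt4, where 25 of all 25107 features were called. The Cma1 difference was -3.53 in that fit. It has to take AdipoKO_WAT arrays 1 and 2, which lie on different slides, as separate samples. Doing so without the block gave the same member count and Cma1 difference, but 278 of all features were called. Nothing is read from these counts either.

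Markers of other cell types also differed between the white fat samples. Their lists were written with earlier results of these data known, so white fat values and calls of their genes are descriptions. A list level is the median, over the tested genes of a list, of the level after subtracting each gene's mean over the 15 samples. The adipocyte list (11 genes, all tested) was -2.17, -1.24 and 0.80 in AdipoKO_WAT samples 1-2, 3 and 4, against 0.18, 0.13, -0.15 and -0.44 in CTL_WAT. The B cell list (8 genes) was 5.17, 4.88 and -1.29 in AdipoKO_WAT, against 0.17, -0.47, 3.71 and 3.04 in CTL_WAT. AdipoKO_WAT 4 therefore had more adipocyte signal and less B cell signal than any white fat control. Taken by itself, that sample had Cma1 2.09, Cpa3 2.02 and Mcpt4 1.67 below the mean of the controls in level. Hdc in that sample was 0.05 above the control mean. Within CTL_WAT, samples 3 and 4, with the higher B cell list, had the lower Cma1 levels.

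The mesothelial list (8 genes) was -1.23, 0.44 and 2.78 in AdipoKO_WAT, against values up to 4.35 in CTL_WAT, the lowest of which was above the highest knockout sample. All 8 mesothelial genes had a negative difference in white fat, with a median of -3.02. Prg4 and Wt1 were called lower, as a description, where 0.0597% of all features were called in either direction. The fibroblast list (8 genes) was -0.94, -0.93 and 0.80 in AdipoKO_WAT, against 1.54, 1.73, 0.12 and 0.76 in CTL_WAT, and 0 of its genes were called. The intestinal list was 7.03 in CTL_WAT 1 and 5.42 in CTL_WAT 4, and at most 0.60 in the other white fat samples. Without those 2 controls the Cma1 difference in white fat was -3.34 and that of Cpa3 -3.19. The part of these cell types in the lower protease levels was not tested.

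**Figure D2:**
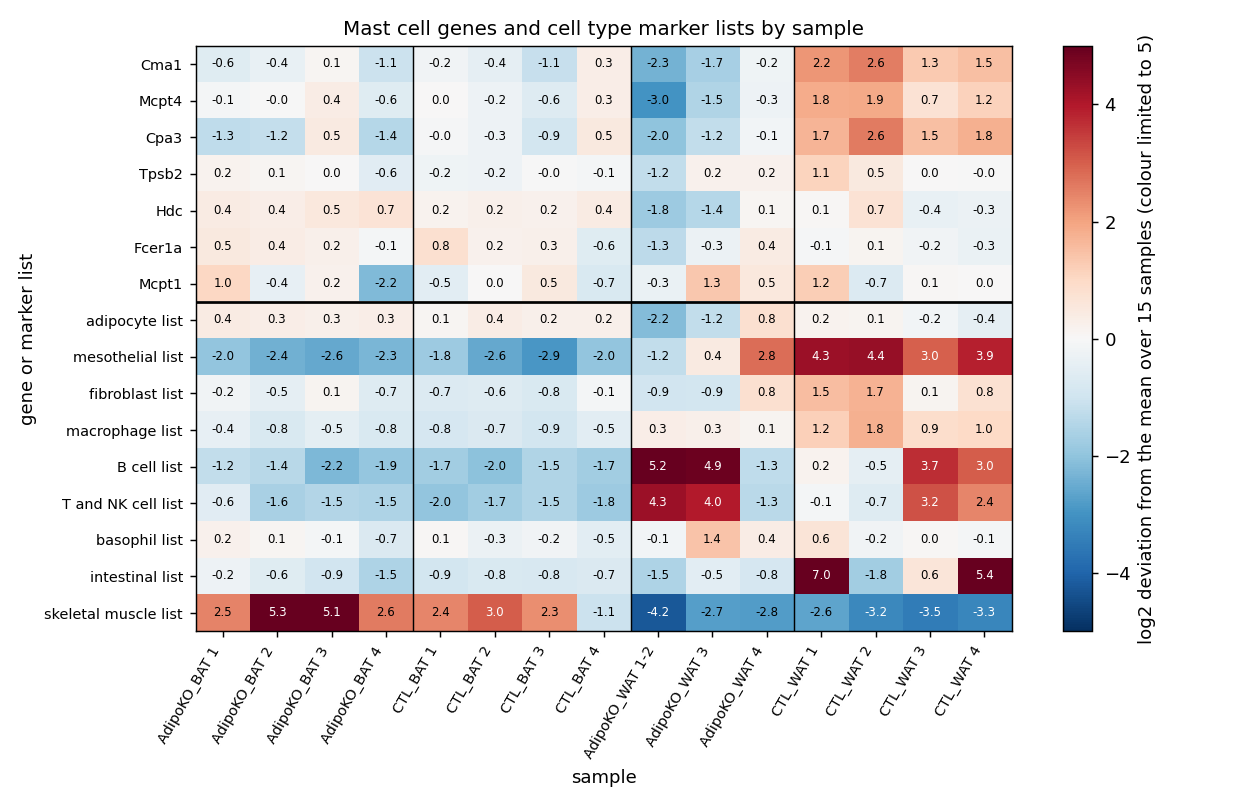
Level of the 7 tested mast cell genes and of 9 cell type marker lists (rows) in each of the 15 samples (columns), as the log2 deviation from the row's mean over the 15 samples, with the colour limited at 5 and the value printed in each cell. CTL_WAT columns are high for Cma1, Mcpt4, Cpa3 and the mesothelial list, and the B cell list is high in AdipoKO_WAT 1-2 and 3 and in CTL_WAT 3 and 4.

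In brown fat the same genes were tested on arrays that had no part in choosing them, and none differed by genotype past the threshold. Cma1 had levels of -1.70, -1.47, -0.98 and -2.19 in AdipoKO_BAT, against -1.28, -1.53, -2.24 and -0.76 in CTL_BAT. The groups overlapped, and the difference in level was -0.13 ± 0.46 (SE; 95% interval -1.11 to 0.85; limma adjusted p = 0.947). Mcpt4 had levels of -2.05, -1.97, -1.57 and -2.54 in AdipoKO_BAT and of -1.95, -2.18, -2.59 and -1.60 in CTL_BAT. Its difference in level was 0.05 ± 0.47 (SE; 95% interval -0.96 to 1.05; limma adjusted p = 0.985).

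Cpa3 had levels of -4.08, -3.97, -2.34 and -4.23 in AdipoKO_BAT, against -2.84, -3.06, -3.72 and -2.31 in CTL_BAT. AdipoKO_BAT 3 stood well above the other knockout samples, at the top of the control range, and the difference was -0.67 ± 0.48 (SE; 95% interval -1.71 to 0.36; limma adjusted p = 0.602). Hdc had levels of -0.03, -0.11, 0.08 and 0.22 in AdipoKO_BAT, against -0.28, -0.21, -0.26 and -0.07 in CTL_BAT. The groups overlapped in 1 knockout and 1 control sample only, and the difference was 0.24 ± 0.35 (SE; limma adjusted p = 0.845). That SE draws on the spread of all 4 groups, and Hdc varied more in white fat. In a limma fit of the 2 brown fat groups alone the same difference had an SE of 0.12 (adjusted p = 0.264). Hdc was higher in AdipoKO_BAT on all 4 slides, by 0.15 to 0.36.

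Tpsb2, Fcer1a and Mcpt1 differed by 0.08, 0.08 and -0.15 in level between AdipoKO_BAT and CTL_BAT, with limma adjusted p of 0.956, 0.959 and 0.958. Mcpt1 was well above background on only 2 of the 4 arrays in each brown fat group. In all, 0 of 7 genes were called in brown fat at the adjusted threshold, where 0.0159% of all features were called, and 0 of 7 at an unadjusted limma p under 0.05, where 13.1% of all features were. The median difference was 0.05, against 0.10 over all features. In simulated data of the brown fat design, 16.4% of genes changed by 1 in log2, 64.8% of those changed by 2 and 89% of those changed by 3 were recovered. The simulated spread of each gene was pooled over all 4 groups, so these shares do not hold for the spread of brown fat alone. The changed genes were drawn from all features, whose median SE in brown fat was 0.32. The SE of the 7 tested members was larger, from 0.33 for Tpsb2 to 0.61 for Mcpt1, and 0.46 for Cma1. The shares are therefore no measure of recovery for the members. The skeletal muscle list was 2.49, 5.29, 5.11 and 2.61 in AdipoKO_BAT and 2.44, 3.02, 2.31 and -1.07 in CTL_BAT, and its part in the brown fat values was not tested.

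**Figure D3:**
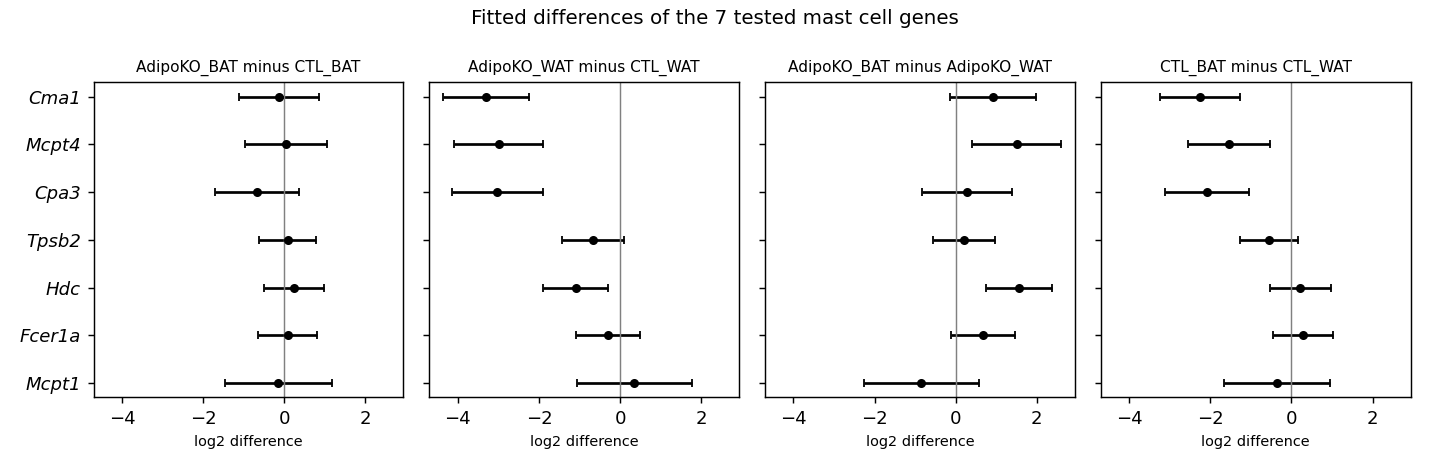
Fitted log2 differences (horizontal axis) of the 7 tested genes with 95% intervals from the fit over 15 samples, for AdipoKO_BAT minus CTL_BAT, AdipoKO_WAT minus CTL_WAT, AdipoKO_BAT minus AdipoKO_WAT, and CTL_BAT minus CTL_WAT. Cma1, Mcpt4 and Cpa3 lie between -3.30 and -2.99 in white fat and between -0.67 and 0.05 in brown fat, and between the control depots they are lower in brown fat.

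Between the depots, Cma1, Mcpt4 and Cpa3 were lower in brown fat among controls and not among knockouts. These comparisons share the white fat arrays that chose the genes, so they are descriptions too. Among controls, Cma1, Cpa3 and Mcpt4 were lower in CTL_BAT than in CTL_WAT, by -2.25 ± 0.46, -2.08 ± 0.48 and -1.54 ± 0.47 in level (SE), and their groups did not overlap. The Tpsb2 groups (-0.55 ± 0.33, SE) were narrowly apart too, with -3.50 the highest level in CTL_BAT and -3.49 the lowest in CTL_WAT. That makes 4 of the 7 genes apart on the lower side, where 18.5% of all features were. At the threshold 3 of the 7, Cma1, Cpa3 and Mcpt4, were called lower, where 14.3% of all features were. Hdc did not share this difference, with 0.22 ± 0.35 (SE).

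Among knockouts, Hdc was higher in AdipoKO_BAT than in AdipoKO_WAT by 1.56 ± 0.37 and Mcpt4 by 1.5 ± 0.51 in level (SE), which are 2 of the 7 genes called higher, where 16.6% of all features were. Cma1 was 0.91 ± 0.49 and Cpa3 0.27 ± 0.52 higher (SE), and neither was called. Without AdipoKO_BAT 1, 2 or 3, or without AdipoKO_WAT 1-2 or 3, Hdc alone was called, and without AdipoKO_WAT 4 the count was 4. That last fit called 11453 of all 25107 features between the knockout depots. The order of group means for Cma1 was thus CTL_WAT at 0.80, CTL_BAT at -1.45, AdipoKO_BAT at -1.58 and AdipoKO_WAT at -2.50, and the last 3 overlapped with their neighbours. The genotype difference in brown fat minus that in white fat was 3.16 ± 0.67 for Cma1, 3.04 ± 0.69 for Mcpt4, 2.35 ± 0.71 for Cpa3 and 1.34 ± 0.51 for Hdc (SE), and 0 of 7 were called, where 0.00398% of all features were. Without AdipoKO_WAT 4, 4 of the 7 were called for this difference of differences, where 4062 of all 25107 features were.

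Cma1, Mcpt4 and Cpa3 also varied together among brown fat samples, where no group difference was called. Over the 8 brown fat samples, Mcpt4 followed Cma1 with Pearson r = 0.972 (exact permutation p = 0.000992, adjusted over 7 relations 0.00694) and Spearman rho = 0.952 (exact permutation p = 0.00114, adjusted 0.00799). Without the 2 samples farthest from the median of Cma1, r was 0.953. Cpa3 followed Cma1 with r = 0.841 (exact permutation p = 0.0096, adjusted 0.0336) and rho = 0.810 (exact permutation p = 0.0218, adjusted 0.0762), and r was 0.853 without the 2 farthest samples. The rank relation of Cpa3 did not pass the correction.

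No relation with Cma1 passed the correction for the other members in brown fat. The r with Cma1 was 0.285 for Tpsb2, 0.094 for Mcpt1, -0.058 for Hdc and -0.223 for Fcer1a, and adjusted exact permutation p was 0.863 or above for each. These r changed with the samples held: without the 2 samples farthest from the median of Cma1 they were 0.528 for Tpsb2, 0.559 for Mcpt1, -0.456 for Hdc and 0.532 for Fcer1a. The other Cma1 probe gave r = 0.729 (exact permutation p = 0.0437, adjusted 0.102), and 0.585 without the 2 farthest samples. Cross-hybridisation between probes of related chymases was not tested. Each slide holds only 2 brown fat arrays, too few for a correlation within a slide. AdipoKO_BAT minus CTL_BAT within slides 1 to 4 was -0.18, 0.77, 0.30 and -1.43 for Cma1, 0.13, 0.62, 0.38 and -0.94 for Mcpt4, and -1.01, -0.26, 0.50 and -1.92 for Cpa3, each lowest on slide 4. AdipoKO_BAT 4 and CTL_BAT 3 were the lowest samples for both Cma1 and Mcpt4, and CTL_BAT 4 and AdipoKO_BAT 3 the highest. The fibroblast list was also highest in AdipoKO_BAT 3 and CTL_BAT 4, with -0.18, -0.46, 0.12 and -0.66 in AdipoKO_BAT and -0.69, -0.65, -0.78 and -0.10 in CTL_BAT. The macrophage list was -0.40, -0.75, -0.49 and -0.75 in AdipoKO_BAT and -0.84, -0.74, -0.91 and -0.53 in CTL_BAT, and like the fibroblast list it was lowest in CTL_BAT 3. The part of both cell types in the shared variation was not tested.

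**Figure D4:**
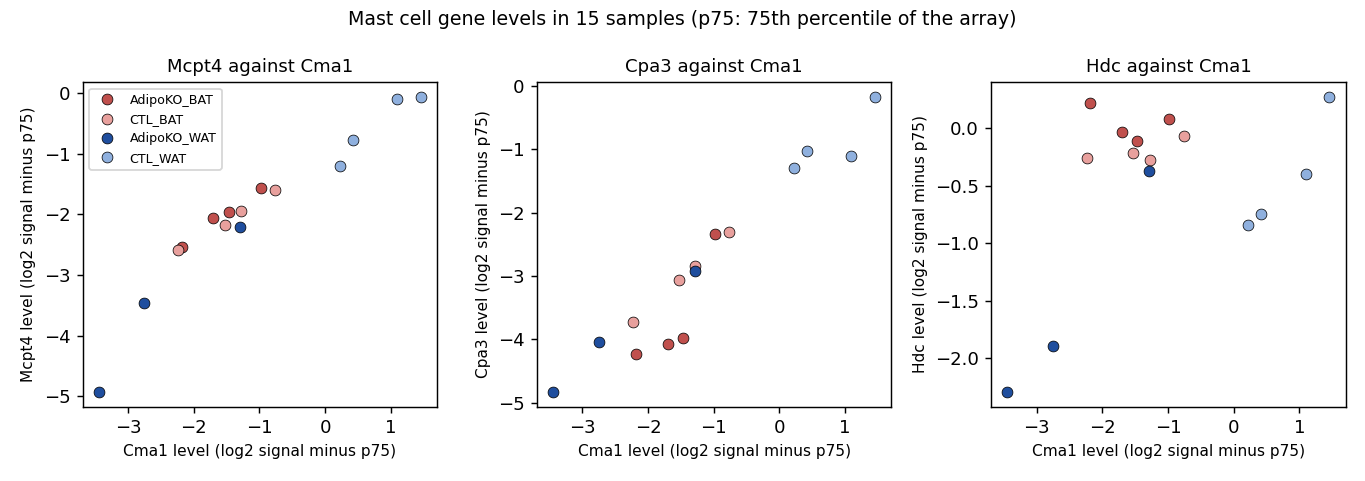
Levels of Mcpt4, Cpa3 and Hdc (vertical axes) against that of Cma1 (horizontal axis) in the 15 samples, each as log2 signal minus the log2 75th percentile, coloured by group. Mcpt4 and Cpa3 rise with Cma1 across all 4 groups, whereas Hdc stays between -0.28 and 0.22 in brown fat over the whole range of Cma1 there.

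Over all 15 samples, Cpa3 (r = 0.962) and Mcpt4 (r = 0.956) ranked 1 and 2 among 16651 named genes by Pearson correlation with Cma1, as a description, since the samples share the white fat difference. Cma2, a further chymase gene, ranked 10 (r = 0.920), while Tpsb2 ranked 646, Hdc 2143, Fcer1a 4303 and Mcpt1 5960. Ranks 3, 4 and 5 went to F13a1, Cd163 and Pf4, genes known from macrophages and platelets. These genes were named after their values were seen. By the rule set for likeness to the median level of the members, the closest genes outside the list were Dpep1 (r = 0.953), Pi16 (r = 0.935) and Hoxb2 (r = 0.914), and Pi16 is a fibroblast gene. The groups and white fat mixture are shared by all these points.

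Other genes of mast cell biology had differences in both directions. Their lists, like those of the other cell types, were written with earlier white fat results known. White fat p-values and calls of list genes, here and below, are therefore descriptions. Of the 17 tested genes for mast cell growth and identity, 9 had a positive and 8 a negative difference in white fat (median 0.05), and 0 were called in white or brown fat. Cma2 differed by -1.48 in white fat, with AdipoKO_WAT levels of -3.91, -2.91 and -2.60 against -1.32, -1.33, -1.98 and -2.02 in CTL_WAT, and by 0.04 in brown fat (limma adjusted p = 0.159 in white fat and 0.979 in brown fat). Tpsg1, a tryptase gene, differed by -2.44 in white fat, and its 2 highest levels, 0.43 and -0.40, were in CTL_WAT 1 and 4, the samples with intestinal transcripts. Il1rl1, the interleukin 33 receptor, differed by -1.21 in white fat (limma adjusted p = 0.21). Gata2, a transcription factor of mast cells and of adipocyte precursors, differed by -0.37 in white fat and 0.66 in brown fat (limma adjusted p = 0.492 and 0.372). Kit, the receptor for stem cell factor, was left without a named probe.

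The signalling genes below the IgE receptor were high in the samples with high lymphocyte markers. All 13 tested genes of that list had a positive difference in white fat (median 0.77), but 0 were called and 0 had groups apart, and the list level was 3.58, 3.28 and -0.65 in AdipoKO_WAT against 0.19, 0.38, 2.53 and 1.93 in CTL_WAT. Lymphocytes use many of these genes too. Lat was 3.97, 3.79 and -0.87 in AdipoKO_WAT and -0.41, -1.35, 2.67 and 2.06 in CTL_WAT, high in the same samples as the B cell list. The part of lymphocytes in these values was not tested. Of the 17 genes for granule packaging and release, 9 had a positive and 8 a negative difference in white fat (median 0.06), and 0 were called. Of the 7 genes for eicosanoid synthesis, 6 had a negative difference (median -0.73). Alox5, the enzyme that starts leukotriene synthesis, differed by -2.33 and its partner Alox5ap by -1.04 in white fat, both with groups apart (limma adjusted p = 0.129 and 0.163), and both genes are also used by macrophages.

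Other granulocyte lists give values beside the proteases. They too were written with earlier white fat results known, so their white fat p-values and calls are descriptions. Mcpt8, a protease of basophils, differed by 0.54 in white fat and 0.65 in brown fat (limma adjusted p = 0.467 and 0.548). Among the 6 tested eosinophil genes, 5 had a negative difference in white fat and 1, Alox15, was called lower (-3.39; limma adjusted p = 0.0164). Alox15 is also made by peritoneal macrophages. Of 8 macrophage genes, 7 had a negative difference in white fat (median -0.72), 4 had groups apart on the lower side and 0 were called, and Cd163 was -1.75, -1.19 and 0.67 in AdipoKO_WAT against 2.24, 2.16, 0.73 and 1.01 in CTL_WAT. In brown fat 0 genes of these lists were called. The part of eosinophils and macrophages in the mast cell values was not tested.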

How the data were processed

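RNA of the 16 samples was hybridised to one-colour arrays, and the authors deposited scanner intensity values made with Agilent Feature Extraction (12.0.0.7, per the file headers), background-subtracted, together with background and outlier flags and a value table. That value table, also an intensity, equals the mean processed signal of each of the 41174 probes on all 16 arrays, within a relative tolerance of 0.0001. Flagged outlier spots and control spots were left out. Probes well above background on at least 3 of 4 arrays of a group were kept, with the brightest probe a gene, leaving 16677 named genes and 8430 unnamed probes. Genes were named through RefSeq accessions. AdipoKO_WAT arrays 1 and 2 were averaged to 1 sample. limma 3.58.1 in R 4.3.3 fitted 1 mean per group over 15 samples, with Benjamini-Hochberg adjustment over 25107 features. The fit was tested on simulated data. The number of arrays limits the precision.

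The design text calls the 4 arrays of a group biological replicates. The members and gene lists were chosen with earlier results of these data known, from the white fat comparison. Named were all members, genes past the threshold in a list (at most 4) or otherwise its 3 largest differences, Kit, Mcpt8 and Gata2, and the 8 genes most like the members; not all of these are printed. Alternatives covered background correction, normalization, filters, probe choice, slide and replicate blocks, and samples left out. Normexp used the median spot and background signals.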

Additional observations from a re-analysis of the deposited data

Results flagged for a closer look

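Cpa3 in AdipoKO_BAT replicate 3 lay far from the other 3 samples of its group. Its level was -2.34, against -4.08, -3.97 and -4.23, and the gap to the nearest sample was 0.863 of the whole range of the group. In that sample Cma1 (-0.98) and Mcpt4 (-1.57) were also the highest of their group, as was Hrh1 (-1.91), a histamine receptor. Chance marks about 1 in 20 groups, and 21 groups were examined. Without that sample the Cpa3 difference between AdipoKO_BAT and CTL_BAT was -1.11 (limma adjusted p = 0.26), against -0.67 with it.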

How the results depend on the processing

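In white fat the number of mast cell genes called was 1, and it was 0 with normexp background correction, without CTL_WAT 1 and CTL_WAT 4 together, with AdipoKO_WAT 4 alone in its group, and with a fit of the 2 white fat groups only. It was 2 with quantile normalization, where 24 of all 25107 features were called. It was 3 with AdipoKO_WAT 1 and 2 as separate samples (278 of all features) or with slide as a block (25), which also takes them as separate. Leaving out 1 sample at a time gave 0 to 4. AdipoKO_WAT 4 alone, an alternative chosen after seeing the data, rests on 1 sample assumed to vary like the other groups. Between AdipoKO_BAT and AdipoKO_WAT the number was 2, and it was 3 with slide as a block, 1 with normexp or without CTL_WAT 1 and 4, 0 with AdipoKO_WAT 4 alone or with only those 2 groups, and 1 to 4 with 1 sample left out. For the interaction of genotype and depot it was 0, and 0 to 4 with 1 sample left out. The cause of these changes was not tested, beyond the fewer samples that some alternatives hold.

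In brown fat the number called was 0 under every alternative run. Between the control depots it stayed at 2 or 3, where the alternatives called 5269 to 10770 of all 25107 features. Small uncalled brown fat differences changed sign. With normexp, which moved the median of all features in brown fat to 0.34 (0.10 otherwise), the difference was 0.09 for Cma1, 0.21 for Cpa3 and 0.50 for Mcpt1. With quantile normalization it was -0.08 for Fcer1a, -0.07 for Mcpt4 and -0.06 for Tpsb2, and with the mean of both probes 0.08 for Cma1. With 1 sample left out it was -0.39 to 0.10 for Cma1, -0.18 to 0.29 for Fcer1a, -0.61 to 0.47 for Mcpt1, -0.12 to 0.22 for Mcpt4 and 0 to 0.25 for Tpsb2. Over all features, alternatives called 0 to 9236 in white fat (15 as reported, the highest without AdipoKO_WAT 4), 0 to 85 in brown fat (4), 0 to 4062 for the interaction (1) and 2839 to 11453 between the knockout depots (7682).

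Deviations from the group mean were compared between knockout and control samples of the same number. In white fat r was -0.47 to 0.08, and 0 of 4 knockout samples correlated best with their own number. In brown fat r was -0.04 to 0.18, and 2 of 4 did. The meaning of a shared number was not tested. Each control brown fat sample correlated best with its own number in control white fat (4 of 4, r of 0.05 to 0.18), as a hint from the data, whereas 0 of 4 did so in the knockouts (r of -0.26 to 0.09). With the replicate block, in a fit that takes AdipoKO_WAT 1 and 2 as separate samples, 1 gene was called in white fat, 0 in brown fat, 0 for the interaction, 2 between the control depots and 2 between the knockout depots. Over all 25107 features that fit called 19, 0, 1, 7876 and 9235, in the same order. The Cma1 difference in white fat was -3.53. Mcpt1, Mcpt2 and Ms4a2 were limited by signal near background, as were Mcpt4, Cpa3, Tpsb2 and Fcer1a on AdipoKO_WAT array 1.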
